A study of Homo sapiens with 8 samples.

Results

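The mevalonate (MVA) pathway enzymes that lead from acetoacetyl-CoA to squalene and its epoxide were followed in 2 multiple myeloma (MM) cell lines exposed to fluvastatin. The genes were chosen by function, by gene symbol, and are HMGCS1, MVK, PMVK, MVD, IDI1, FDPS, GGPS1, FDFT1 and SQLE. They are 9 of the 58219 genes listed in each library, and all 9 were among the 13129 protein-coding genes that had enough counts to be tested. H929 and KMS11 are established MM lines that both carry the t(4;14) translocation, so no group here lacks it. Each line was grown in RPMI medium with fetal bovine serum and was left for 24 h in ethanol, the solvent control, or in 2 µM fluvastatin, with 2 biological replicates per line and treatment and 8 libraries in all. Values from 2 lines in culture may not extend to other t(4;14) MM cells.

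The MVA pathway builds the isoprenoid diphosphates from which cells make cholesterol, dolichol, the side chain of coenzyme Q and the lipid anchors of many small GTPases. Statins block the pathway at its rate-limiting step. When sterol in the endoplasmic reticulum falls, SREBP transcription factors are cut free and, together with NF-Y and Sp1, raise transcription of the pathway's own genes, a feedback best described in liver and cultured cells. Plasma cells, from which MM arises, secrete large amounts of protein through an extensive endoplasmic reticulum.

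Total expected counts, the fragments that RSEM assigned to genes, ranged from 26702515 to 41910446 per library. The lowest count of a member was 135 in a library, for MVD, and counts of the most abundant member, FDPS, reached 26604. The plasma cell markers SDC1 (38.8 to 122 TPM, RSEM's abundance scaled by transcript length), TNFRSF17 (129.5 to 480.06 TPM), PRDM1, IRF4 and XBP1 were present in every library. CD38 was between 21.2 and 26.9 TPM in H929 and between 0.01 and 0.04 TPM in KMS11. The B cell markers MS4A1 and PAX5 did not exceed 0.02 TPM. The summed TPM of the 6 plasma cell markers was lower with fluvastatin in both lines, from between 1711 and 1757 to between 1549 and 1552 in H929 and from between 801 and 827 to between 549 and 654 in KMS11, but its members differed. XBP1 was lower in both lines (log2 fold change -0.34 in H929 and -0.40 in KMS11), SDC1 was lower (-1.08) and PRDM1 higher (0.32) in H929, and no other call was made among the 6 by edgeR. The T cell marker CD3E was at 1.49 and 1.59 TPM in H929 ethanol and between 2.92 and 3.54 TPM in H929 fluvastatin (1.13, adjusted p = 0.00309, edgeR), and at 0.45 TPM or less in KMS11, while the myeloid marker LYZ did not exceed 0.17 TPM. The part of these markers in the response of the pathway genes was not tested.

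Fluvastatin raised 7 of the 9 genes in KMS11 and 1 of the 9 in H929, where another 2 fell. In KMS11 the rises ran from 1.70-fold for FDPS to 4.67-fold for MVD, whereas PMVK and GGPS1 did not pass the test. In H929 the gene that rose was GGPS1, and those that fell were PMVK and FDPS. The responses of the lines differed past the threshold for 8 of the 9 genes. The test was edgeR's quasi-likelihood test on counts with Benjamini-Hochberg adjustment over all tested genes and a threshold of 0.05. By that test 3.12% of all genes passed within KMS11 (2.58% higher, 0.533% lower), 42.0% within H929 (22.7% higher, 19.3% lower) and 23.2% for the difference between the lines (11.7% positive, 11.5% negative). These are bulk RNA samples, in which fewer cells of a type and less RNA per cell cannot be told apart.

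**Figure D1:**
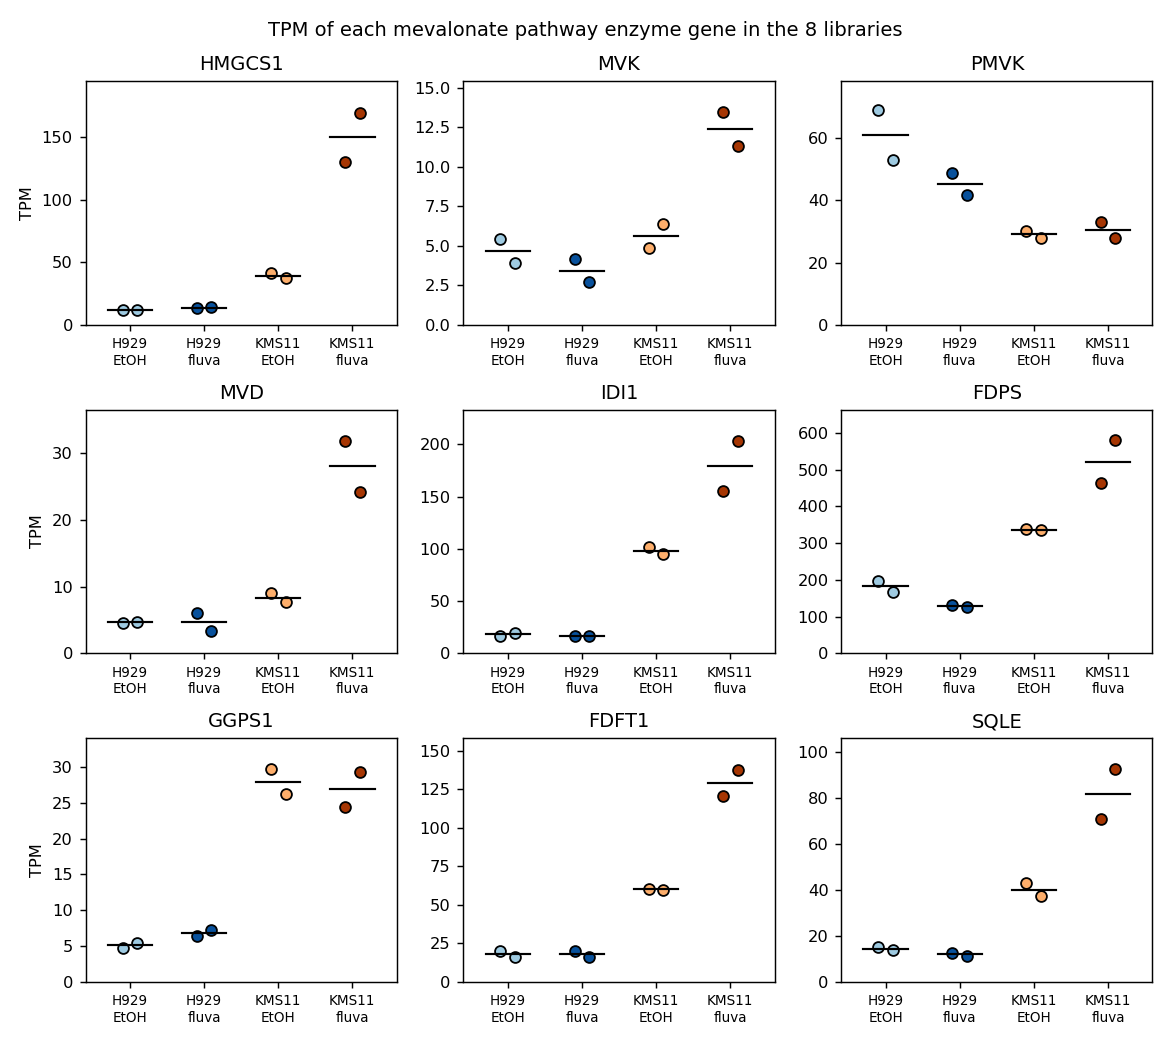
TPM of each of the 9 genes in the 8 libraries, with a panel and a linear axis from 0 for each gene, a point for each library and a bar for the mean of the 2 replicates. For HMGCS1, MVK, MVD, IDI1, FDPS, FDFT1 and SQLE both KMS11 fluvastatin libraries stand above all other libraries, while the points of GGPS1 separate by line and not by treatment within KMS11.

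The promoters of these genes are shown because SREBP, NF-Y and Sp1 sites are how the pathway's genes are usually described as being regulated together. RefSeq promoter windows of 250 bases before a start (GRCh38.p14) were at hand for 7 of the 9 genes, 12 windows in all. The promoters of FDFT1 and SQLE were not analysed here. The stretches below lie outside every annotated exon, read 5′ to 3′ on the strand of the gene, and have CCAAT boxes, the letters bound by NF-Y, in capitals on either strand (CCAAT or ATTGG). The HMGCS1, MVK, MVD and IDI1 stretches come from genes that rose in KMS11, those of PMVK and GGPS1 from the genes that did not pass there. For HMGCS1, IDI1 and GGPS1 only 1 of several windows is shown. The windows of HMGCS1 and GGPS1 that are not shown held 0 CCAAT boxes. The stretch of FDPS, which also rose in KMS11, is not printed. The MVK stretch begins at the base next to the start of MMAB, a gene on the other strand.
HMGCS1, chr5:43313513-43313662, minus strand: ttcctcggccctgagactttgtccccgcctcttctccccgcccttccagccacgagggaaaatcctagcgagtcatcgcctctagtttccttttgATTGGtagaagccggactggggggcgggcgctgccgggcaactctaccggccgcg
MVK, chr12:109573581-109573792, plus strand: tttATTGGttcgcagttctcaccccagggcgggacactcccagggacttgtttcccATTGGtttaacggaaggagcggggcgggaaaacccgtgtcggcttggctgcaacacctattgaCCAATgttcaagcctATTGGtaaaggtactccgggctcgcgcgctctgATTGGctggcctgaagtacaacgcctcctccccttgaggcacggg
MVD, chr16:88663162-88663297, minus strand: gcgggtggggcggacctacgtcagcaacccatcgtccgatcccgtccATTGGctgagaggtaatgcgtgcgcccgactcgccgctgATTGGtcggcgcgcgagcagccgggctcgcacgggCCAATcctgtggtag
IDI1, chr10:1049120-1049369, minus strand: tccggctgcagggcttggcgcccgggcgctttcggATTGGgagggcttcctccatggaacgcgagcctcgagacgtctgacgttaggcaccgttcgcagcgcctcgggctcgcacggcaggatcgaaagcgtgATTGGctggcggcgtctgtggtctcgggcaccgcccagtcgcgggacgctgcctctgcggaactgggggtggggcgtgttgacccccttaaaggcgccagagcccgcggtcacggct
PMVK, chr1:154936720-154936969, minus strand: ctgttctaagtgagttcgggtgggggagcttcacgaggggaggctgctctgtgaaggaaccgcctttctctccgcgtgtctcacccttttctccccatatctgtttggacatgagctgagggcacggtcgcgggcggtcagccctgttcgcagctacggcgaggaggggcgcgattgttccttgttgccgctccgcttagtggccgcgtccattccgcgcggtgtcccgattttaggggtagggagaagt
GGPS1, chr1:235328320-235328398, plus strand: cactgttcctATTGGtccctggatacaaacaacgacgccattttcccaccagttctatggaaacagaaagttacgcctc

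Counted over whole windows on both strands, the window of MVK held 5 CCAAT boxes, those of MVD and FDPS held 3 each, 2 windows of IDI1 held 3 and 2, a window of HMGCS1 held 2, a single window of GGPS1 held 1, and that of PMVK held 0. Of all 35116 windows of this length, 32.0% held at least 1 CCAAT box and 9.53% held 2 or more. A GC box (GGGCGG, the letters bound by Sp1) was present in at least 1 window of all 7 genes and in 42.6% of all windows. These are unlike units, since a gene has up to 3 windows, and a window of GGPS1 held 0. The sterol regulatory element in the form TCACNCCAC was found in 0 of the 12 windows of the 7 genes and in 0.883% of all windows. So few windows and 1 form of the element cannot show whether these genes have SREBP sites. No different motifs overlapped, but 2 of the CCAAT boxes in a window of IDI1 share letters on opposite strands, and windows of HMGCS1 and of IDI1 overlap. A match is a description of the letters and was not tested against the response.

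Within KMS11, 7 of the 9 enzymes rose, from the synthase HMGCS1 to the squalene branch, and PMVK and GGPS1 did not pass. HMGCS1 (ENSG00000112972.14, chr5:43287470-43313512, minus strand of GRCh38), which condenses acetoacetyl-CoA with acetyl-CoA, had 41.7 and 37.2 TPM in ethanol and 131 and 169.55 TPM in fluvastatin. Each treated library had more than 3 times the level of either control. Its log2 fold change was 2.04 (SE 0.11, adjusted p = 1.28e-05, edgeR), a 4.11-fold rise and the 166th highest fold change among the 13129 genes.

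MVK, PMVK and MVD carry out the 3 consecutive ATP-dependent steps from mevalonate to isopentenyl diphosphate. MVK (ENSG00000110921.13, chr12:109573255-109598125, plus strand), the kinase that phosphorylates mevalonate, had 4.89 and 6.36 TPM in ethanol and 13.5 and 11.3 TPM in fluvastatin. MVD (ENSG00000167508.11, chr16:88651935-88663161, minus strand), the decarboxylase, had 9.05 and 7.66 TPM in ethanol and 31.8 and 24.2 TPM in fluvastatin. For both genes the treated libraries lay above the controls without overlap, by a log2 fold change of 1.47 for MVK (SE 0.22, adjusted p = 0.00767, edgeR) and 2.22 for MVD (SE 0.30, adjusted p = 0.00421, edgeR). On log2(TPM + 1) with limma MVD was at 1.62 and HMGCS1 at 1.89. After a trend with GC content was removed they were at 1.68 and 2.12, so MVD was above HMGCS1 in the main fit but not in these.

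PMVK (ENSG00000163344.5, chr1:154924740-154936719, minus strand), the kinase between them, had 30.2 and 27.9 TPM in ethanol and 33.0 and 28.1 TPM in fluvastatin. The TPM ranges overlapped, and the log2 fold change on counts was 0.22 (SE 0.16, adjusted p = 0.42, edgeR). Of the 3 steps, the middle enzyme was the one without a call.

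IDI1 (ENSG00000067064.10, chr10:1039152-1049119, minus strand), which isomerises isopentenyl to dimethylallyl diphosphate, had 101.3 and 94.6 TPM in ethanol and 155 and 203 TPM in fluvastatin. FDPS (ENSG00000160752.14, chr1:155308748-155320666, plus strand), the farnesyl diphosphate synthase and the target of nitrogen-containing bisphosphonates, had 339 and 335 TPM in ethanol and 463 and 581 TPM in fluvastatin. Neither gene's groups overlapped, and in both the second treated library was the higher. The log2 fold change was 1.02 for IDI1 (SE 0.11, adjusted p = 0.000895, edgeR) and 0.77 for FDPS (SE 0.10, adjusted p = 0.00426, edgeR).

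GGPS1 (ENSG00000152904.11, chr1:235327350-235344532, plus strand) extends farnesyl to geranylgeranyl diphosphate, the anchor of Rab GTPases, and had 29.7 and 26.2 TPM in ethanol and 24.4 and 29.3 TPM in fluvastatin. The groups overlapped, with a log2 fold change of 0.06 (SE 0.12, adjusted p = 0.816, edgeR). Another fate of farnesyl diphosphate runs through FDFT1 (ENSG00000079459.12, chromosome 8, plus strand), the squalene synthase. It had 60.4 and 59.7 TPM in ethanol and 120.3 and 138 TPM in fluvastatin. SQLE (ENSG00000104549.11, chromosome 8, plus strand), which makes the epoxide of squalene, had 43.2 and 37.2 TPM in ethanol and 70.8 and 92.5 TPM in fluvastatin. Both genes of the sterol branch were higher in every treated library than in either control, with log2 fold changes of 1.24 for FDFT1 (SE 0.12, adjusted p = 0.000438, edgeR) and 1.21 for SQLE (SE 0.12, adjusted p = 0.000482, edgeR).

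The median log2 fold change of the 9 genes within KMS11 was 1.21, against 0.00 for all tested genes. By TMM-normalised counts scaled to library size (CPM) 8 of the 9 had both treated libraries above both controls, PMVK included, as had 26.9% of all genes, and GGPS1 alone overlapped. The count of calls rested on the 2 KMS11 ethanol libraries. Without KMS11 ethanol replicate 1 the genes past the threshold were HMGCS1, FDFT1 and SQLE, 3 in number, and without KMS11 ethanol replicate 2 they were these and IDI1, 4 in number, while 61 and 71 of the 13129 genes passed. In those fits the lone control was assumed to vary like the other groups, and the log2 fold changes of MVK (1.34 and 1.55), MVD (2.22 and 2.17) and FDPS (0.67 and 0.81) had adjusted p above the threshold, up to 0.131 (edgeR). IDI1 had 0.97 without KMS11 ethanol replicate 1 (adjusted p = 0.0521, edgeR), and FDPS did not pass in the limma fit of TPM (0.62).

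**Figure D2:**
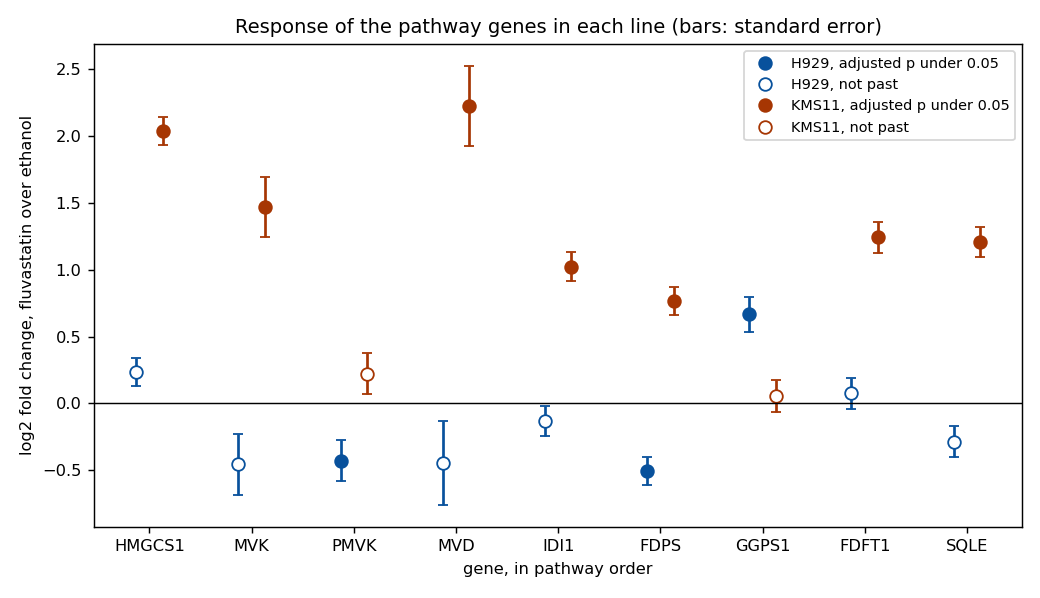
Log2 fold change of fluvastatin over ethanol for each gene in pathway order, with H929 in blue and KMS11 in brown, bars for the standard error and filled points for an adjusted p under 0.05. In KMS11 7 of 9 points are filled and lie between 0.77 and 2.22, and in H929 PMVK (-0.43) and FDPS (-0.51) are filled below 0 and GGPS1 (0.67) above it.

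Within H929 the changes that passed went both ways, and the largest (0.67, for GGPS1) was smaller than any that passed in KMS11 (0.77, for FDPS, or more). FDPS had 197 and 168 TPM in ethanol and 131 and 125 TPM in fluvastatin. PMVK had 69.2 and 52.9 TPM in ethanol and 49.0 and 41.8 TPM in fluvastatin. Both genes were lower in each treated library than in either control, and they fell by 0.51 for FDPS (SE 0.11, adjusted p = 0.00355, edgeR) and by 0.43 for PMVK (SE 0.15, adjusted p = 0.0482, edgeR) on the log2 scale.

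GGPS1 went the other way in H929, from 4.74 and 5.45 TPM in ethanol to 6.33 and 7.24 TPM in fluvastatin. Its treated libraries did not overlap the controls, and the log2 fold change was 0.67 (SE 0.13, adjusted p = 0.00256, edgeR). On log2(TPM + 1) with limma it was 0.35 and did not pass (adjusted p = 0.0828). The effective length by which RSEM divided the GGPS1 counts was 1126 and 1095 bases in H929 ethanol and 1275 and 1360 bases in H929 fluvastatin. The part of this length in the rise on counts was not tested. Of the 2 prenyl diphosphate synthases, the one that extends farnesyl diphosphate was higher and the one that makes it was lower.

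HMGCS1, which of the 9 had the lowest adjusted p in KMS11, had 11.7 and 12.2 TPM in ethanol and 13.5 and 13.9 TPM in fluvastatin in H929. The treated libraries were the higher, by a log2 fold change of 0.24 that did not pass (SE 0.10, adjusted p = 0.0979, edgeR) and that was 0.04 after a trend with GC content was removed. SQLE had 15.1 and 13.7 TPM in ethanol and 12.7 and 11.2 TPM in fluvastatin, without overlap and with a log2 fold change of -0.29 (SE 0.12, adjusted p = 0.0748, edgeR). FDFT1 had 20.0 and 15.9 TPM in ethanol and 20.0 and 15.8 TPM in fluvastatin, with replicate 1 the higher in each treatment and the groups overlapping, and a log2 fold change of 0.07 (SE 0.12, adjusted p = 0.649, edgeR).

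IDI1 had 16.6 and 19.5 TPM in ethanol and 16.1 and 16.1 TPM in fluvastatin. Its treated libraries lay below the controls by TPM and overlapped them by CPM, and the log2 fold change was -0.13 (SE 0.11, adjusted p = 0.381, edgeR). MVK had 5.43 and 3.92 TPM in ethanol and 4.14 and 2.69 TPM in fluvastatin. MVD had 4.55 and 4.68 TPM in ethanol and 6.06 and 3.28 TPM in fluvastatin. The groups of MVK and MVD overlapped and neither passed, with log2 fold changes of -0.46 (SE 0.23, adjusted p = 0.135, edgeR) and -0.45 (SE 0.31, adjusted p = 0.284, edgeR). As CPM, MVD had 11.4 and 8.60 in ethanol and 9.36 and 5.44 in fluvastatin, and the effective length by which RSEM divided its counts ranged from 712 to 1184 bases among the H929 libraries, so that its TPM and CPM order the libraries differently.

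The median log2 fold change of the 9 genes within H929 was -0.29, against 0.02 for all tested genes, and 3 of the 9 were positive. By CPM 2 genes lay above and 3 below the controls without overlap, and 37.5% and 33.5% of all genes did so. In H929 replicate 1 exceeded replicate 2 in both treatments for MVK, PMVK, MVD, FDPS, FDFT1 and SQLE. Transcript GC was 59.0% to 64.1% for MVK, PMVK and MVD, 54.3% for FDPS, 48.8% for FDFT1 and 42.4% for SQLE. The part of GC content in this shift was not tested. After removal of a GC trend in each library, 7 of the 9 genes passed in H929, GGPS1 higher and MVK, PMVK, MVD, IDI1, FDPS and SQLE lower, while 56.8% of all genes passed. PMVK was at the threshold and did not pass when H929 ethanol replicate 1 (-0.23), H929 fluvastatin replicate 2 (-0.31) or either KMS11 ethanol library (-0.46 each) was left out, nor with library size scaling, a stricter filter or limma. The calls also changed without either KMS11 fluvastatin library, where MVK was at -0.49 and SQLE at -0.32. The same held without H929 fluvastatin replicate 1, where MVK was at -0.75.

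The difference between the responses was tested directly, as the log2 fold change in KMS11 minus that in H929. It was positive and passed for 7 genes, led on counts by MVD (2.67, SE 0.43, adjusted p = 0.00274), MVK (1.93, SE 0.32, adjusted p = 0.00305) and HMGCS1 (1.80, SE 0.15, adjusted p = 0.000113, edgeR). The order of these 3 depended on the processing. HMGCS1 was at 1.71 and MVK at 1.39 with limma on log2(TPM + 1), and at 2.07 and 1.58 after removal of a GC trend. MVD ran from 1.65 to 3.11 over all alternatives. For SQLE (1.49), FDPS (1.28), FDFT1 (1.17) and IDI1 (1.15) the values lay close together. For GGPS1 it was negative, -0.61 (SE 0.18, adjusted p = 0.0332, edgeR), and this call was lost in the limma fit of TPM and without any of H929 ethanol replicate 1, H929 fluvastatin replicate 2, KMS11 ethanol replicate 1, KMS11 ethanol replicate 2 or KMS11 fluvastatin replicate 1, with values from -0.63 to -0.41. For PMVK it was 0.65 (SE 0.22, adjusted p = 0.0577, edgeR) and did not pass, though it did without H929 ethanol replicate 2, H929 fluvastatin replicate 1 or KMS11 fluvastatin replicate 2 (0.78 to 0.82) with DESeq2 (0.60) and with no filter (0.66), and, at a smaller size, after removal of a GC trend (0.33) or of GC and length trends (0.32). FDPS is the gene that rose in KMS11 and fell in H929, each past the threshold. The median difference over the 9 genes was 1.28, against 0.00 over all tested genes.

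**Figure D3:**
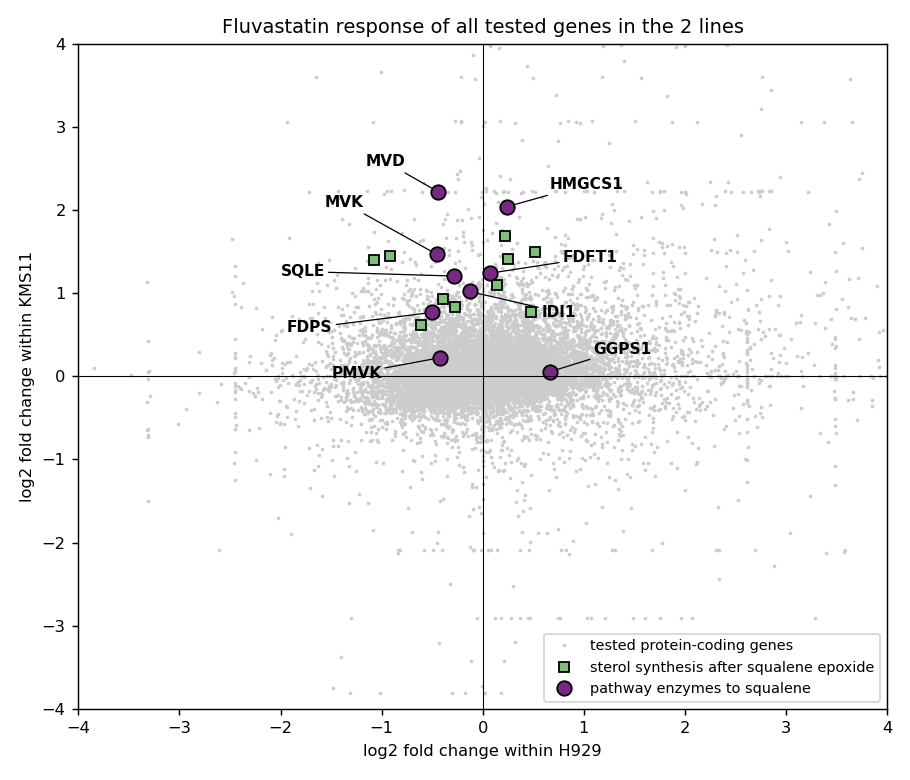
Log2 fold change within H929 (horizontal) and within KMS11 (vertical) for the tested protein-coding genes (grey), the 9 genes (purple) and the 10 genes of sterol synthesis after squalene epoxide (green), with axes held to 4 in either direction and 155 genes outside them. Among the purple and green points MVD and HMGCS1 stand highest at 2.22 and 2.04 on the vertical axis, below some grey points, and GGPS1 lies at 0.67 on the horizontal and 0.06 on the vertical axis.

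The lines also differed in ethanol. Per length, FDPS was the most abundant of the 9 in both lines, at 182 ± 20.3 TPM in H929 and 337 ± 2.34 TPM in KMS11 (SD, n = 2). In H929 it was followed by PMVK (61.1 ± 11.5 TPM), then IDI1 (18.1 ± 2.01), FDFT1 (17.9 ± 2.96), SQLE (14.4 ± 0.933) and HMGCS1 (12.0 ± 0.332), with GGPS1 (5.10 ± 0.502), MVK (4.68 ± 1.07) and MVD (4.62 ± 0.0919) lowest. The ranges of IDI1 and FDFT1 overlapped, as did those of the 3 lowest genes, so their order is not resolved. In KMS11 the order was FDPS, IDI1 (98.0 ± 4.73 TPM), FDFT1 (60.1 ± 0.502), SQLE (40.2 ± 4.21), HMGCS1 (39.4 ± 3.15), PMVK (29.1 ± 1.61), GGPS1 (27.9 ± 2.51), MVD (8.36 ± 0.983) and MVK (5.63 ± 1.04), with overlap between SQLE and HMGCS1 and between PMVK and GGPS1. PMVK stood behind FDPS alone in H929 and overlapped GGPS1 in KMS11.

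On counts, 6 genes were higher in KMS11 ethanol than in H929 ethanol, 2 were lower and 1 did not pass, where 72.0% of all genes passed (35.6% higher, 36.4% lower). GGPS1 (log2 difference 2.27, adjusted p = 2.27e-07) and IDI1 (2.02, adjusted p = 2.07e-07) differed the most, ahead of FDFT1 (1.29), HMGCS1 (1.28), SQLE (0.86) and FDPS (0.34, adjusted p = 0.0151, edgeR). PMVK was lower in KMS11, by a log2 difference of -1.60 (adjusted p = 1.01e-05, edgeR), and it stayed lower on TPM. MVK (-0.68, adjusted p = 0.0197) and MVD (-0.25, adjusted p = 0.472, edgeR) changed direction with the scale, and both were positive on log2(TPM + 1), at 0.23 and 0.73, and after removal of a GC trend, at 0.02 and 0.83. In both of those fits MVD passed as higher in KMS11 (adjusted p = 0.0152 with limma and 0.000134 with edgeR) and MVK did not pass, so that 7 genes were higher and 1 lower. On log2(TPM + 1) the median of all genes in this comparison was shifted by 0.33 from that on counts. FDPS did not pass without KMS11 ethanol replicate 2 (0.27) or H929 ethanol replicate 2 (0.25), nor MVK without KMS11 ethanol replicate 1 (-0.57) or H929 ethanol replicate 1 (-0.46).

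With fluvastatin the order in H929 was almost that in ethanol, with HMGCS1 (13.7 ± 0.276 TPM) above SQLE (12.0 ± 1.07). In KMS11 HMGCS1 moved up to 150.1 ± 27.5 TPM, where its range overlapped those of IDI1 (179 ± 33.7) and FDFT1 (129 ± 12.3). MVD rose to 28.0 ± 5.35 TPM and overlapped PMVK (30.5 ± 3.50) and GGPS1 (26.9 ± 3.49), while FDPS (522 ± 83.2) stayed highest and MVK (12.4 ± 1.56) lowest.

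Summed over the 9 genes, H929 held 344 and 296 TPM in ethanol and 259 and 237 TPM in fluvastatin, and KMS11 held 659 and 632 TPM in ethanol and 1043 and 1276 TPM in fluvastatin. With fluvastatin the sum was lower in H929 and higher in KMS11, without overlap between treatments in either line. FDPS made up 56.7% to 57.2% of the sum in H929 ethanol and 50.6% to 52.8% in H929 fluvastatin, and 51.4% to 53.0% in KMS11 ethanol and 44.4% to 45.5% in KMS11 fluvastatin. Without FDPS the H929 sums were 147 and 128 TPM in ethanol and 128 and 112 TPM in fluvastatin, the nearest libraries being 128.25 and 127.81, and the KMS11 sums were 320.4 and 297 TPM against 579.55 and 695 TPM. The largest part of these H929 sums was PMVK, with 69.2 and 52.9 TPM in ethanol and 49.0 and 41.8 TPM in fluvastatin. The sums therefore do not show a fall of the pathway genes in general in H929.

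The ratio of FDPS to GGPS1 TPM compares the synthase that makes farnesyl diphosphate with the synthase that extends it. It was 41.5 and 30.8 in H929 ethanol and 20.7 and 17.3 in H929 fluvastatin, and 11.4 and 12.8 in KMS11 ethanol and 19.0 and 19.8 in KMS11 fluvastatin. With fluvastatin the ratio was lower in H929 and higher in KMS11, and the treated ranges of the lines overlapped where the control ranges lay apart. The ratio of FDFT1 to GGPS1, the squalene branch against the geranylgeranyl branch, was 4.23 and 2.91 against 3.17 and 2.19 in H929, with overlap, and 2.03 and 2.28 against 4.93 and 4.69 in KMS11, without overlap. The ratio of SQLE to FDFT1, consecutive steps of the sterol branch, stayed between 0.589 and 0.867 in all 8 libraries. These ratios were not tested.

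**Figure D4:**
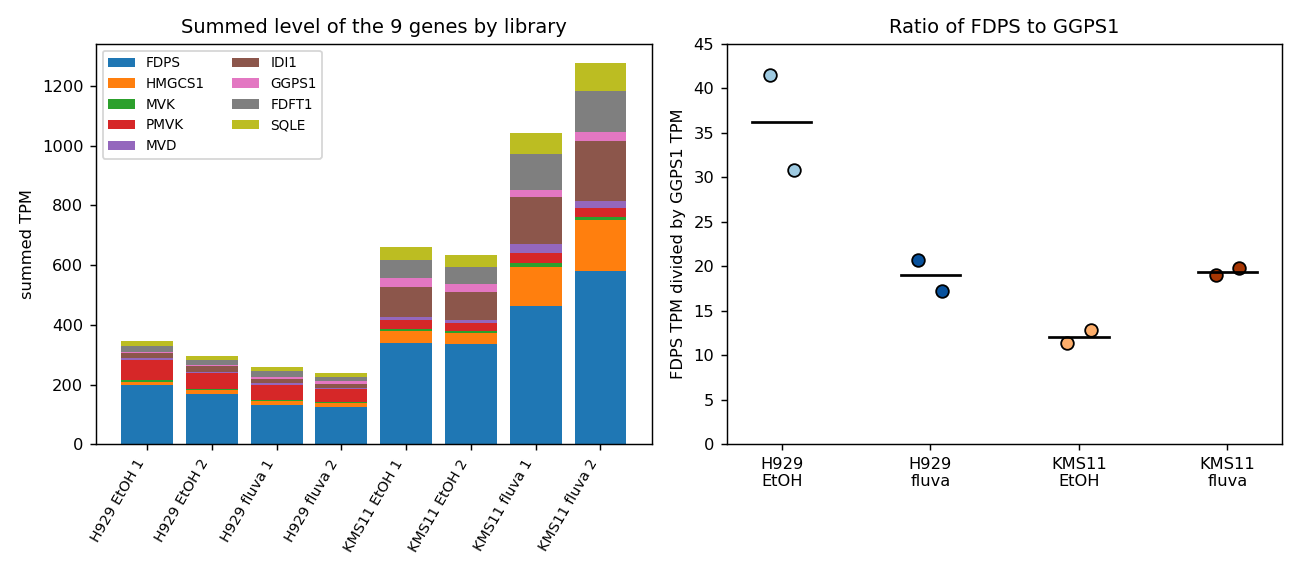
Left, TPM of the 9 genes stacked by library on a linear axis from 0. Right, the ratio of FDPS to GGPS1 TPM in each library with the mean as a bar. The stacks reach 1043 and 1276 TPM in KMS11 fluvastatin and 259 and 237 TPM in H929 fluvastatin, and the ratio is at least 30.8 in H929 ethanol and at most 20.7 in H929 fluvastatin, and at most 12.8 in KMS11 ethanol and at least 19.0 in KMS11 fluvastatin.

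Taking both lines in 1 fit that allows for their different levels, 0 of the 9 genes passed, where 10.4% of all tested genes did. At an unadjusted p under 0.05 there were 3 in edgeR's quasi-likelihood test. DESeq2 called 2, HMGCS1 and FDFT1, where it called 19.3% of all genes. HMGCS1 came closest, with a log2 fold change of 1.15 (SE 0.33, adjusted p = 0.0579, edgeR). The median over the 9 was 0.47, against 0.03 over all tested genes. FDPS, which moved in opposite directions in the lines, had a log2 fold change of 0.13 in that fit (adjusted p = 0.734, edgeR).

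The step before the synthase and the rest of sterol synthesis were examined by lists of fixed membership. ACAT2, the cytosolic thiolase that makes acetoacetyl-CoA, went as FDPS did, from 7.78 and 7.23 TPM to 4.78 and 4.55 TPM in H929 and from 25.0 and 25.7 TPM to 53.4 and 67.2 TPM in KMS11. It fell by 0.66 in H929 (adjusted p = 0.00124, edgeR) and rose by 1.34 in KMS11 (adjusted p = 0.000165, edgeR) on the log2 scale, and the responses differed by 2.00 (adjusted p = 9.45e-05, edgeR). Of the 10 genes of sterol synthesis after squalene epoxide, 10 rose in KMS11 with a median log2 fold change of 1.25. The highest were the reductase TM7SF2 (1.69), the cyclase LSS (1.50), the reductase DHCR7 (1.45) and the oxidase MSMO1 (1.42). In H929 SC5D (0.48) was higher and 4 genes were lower, among them DHCR7 (-0.92), EBP (-0.61) and HSD17B7 (-0.39). The other 5 did not pass, where 42.0% of all genes passed (22.7% higher, 19.3% lower). Of the 10, 9 differed between the lines, where 23.2% of all genes did. As for the 9 enzymes, the calls of this list in KMS11 rested on the ethanol libraries, and leaving out KMS11 ethanol replicate 1 left 3 of the 10, leaving out KMS11 ethanol replicate 2 left 6, and limma on TPM gave 7. ACAT2 passed without either of them (1.23 and 1.40). In H929 SC5D did not pass without H929 ethanol replicate 1 or H929 fluvastatin replicate 2 (0.41 each), and HSD17B7 did not pass without any 1 of the 4 H929 libraries (-0.47 to -0.31).

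The genes that use the isoprenoids include the prenyltransferases and the synthases of the coenzyme Q tail and of dolichol. They gave 0 calls of 12 in KMS11 by edgeR and by DESeq2, where 3.12% and 7.05% of all genes passed. Their median log2 fold change there was -0.09 by edgeR. The count of calls changed without KMS11 fluvastatin replicate 2, where RABGGTA was at 0.60, RABGGTB at -0.48 and TRIT1 at -0.46. In H929 FNTA (0.40), the farnesyltransferase alpha subunit, was higher and 5 were lower, among them PDSS1 (-1.35), RABGGTB (-0.81), TRIT1 (-0.56) and NUS1 (-0.31), a count of 6 of 12 where 42.0% of all genes passed. The count was 3 with limma and 8 after removal of a GC trend, where 32.0% and 56.8% of all genes passed. It also changed without H929 ethanol replicate 2. FNTA and NUS1 did not pass without either KMS11 ethanol library (0.36 and -0.35) or without H929 ethanol replicate 1 (0.31 and -0.36), FNTA without H929 fluvastatin replicate 2 (0.28), NUS1 without H929 fluvastatin replicate 1 (-0.25), and NUS1 and TRIT1 without H929 ethanol replicate 2 (-0.27 and -0.47). PDSS1 makes the coenzyme Q tail with PDSS2, and RABGGTB is the beta subunit of the Rab geranylgeranyl transferase. Of the 7 genes of the SREBP machinery, INSIG1, which holds SREBP in the endoplasmic reticulum and is itself an SREBP target, rose in KMS11 (1.17, adjusted p = 0.0109, edgeR), a call that was lost without KMS11 ethanol replicate 1 (1.07, adjusted p = 0.165) or KMS11 ethanol replicate 2 (1.21, adjusted p = 0.111, edgeR). SREBF2, which encodes SREBP2, had a log2 fold change of 0.90 there and missed the threshold (adjusted p = 0.0502, edgeR), though it passed with DESeq2 (0.87), without KMS11 fluvastatin replicate 2 (1.06) and without any 1 of the 4 H929 libraries (0.90 each). In H929 MBTPS2 (0.50) was higher and MBTPS1 (-0.31) lower, the proteases that release SREBP. The other 5 of the 7 did not pass, where 42.0% of all genes passed. MBTPS2 did not pass without either KMS11 ethanol library (0.47), H929 ethanol replicate 1 (0.40) or H929 fluvastatin replicate 2 (0.29), nor MBTPS1 without H929 ethanol replicate 2 (-0.29) or either H929 fluvastatin library (-0.29 and -0.34).

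Among themselves the 9 genes followed a common profile over the 8 libraries apart from GGPS1 and PMVK. With log2 CPM centred within each line, HMGCS1 was closest to FDFT1 (Pearson r = 0.977), MVK to MVD (0.988), IDI1 to HMGCS1 (0.957), FDPS to SQLE (0.926) and SQLE to FDFT1 (0.950, n = 8 libraries each). The correlation with the mean of the other members was 0.397 for PMVK and -0.237 for GGPS1, whose lowest value was with PMVK (-0.803). All points share the libraries and the fluvastatin response of KMS11, and the values are descriptions without a test. Outside the lists, the genes most like the mean profile were GPAT4 (0.980), SPAG7 (0.980), IDH1 (0.976), LPCAT1 (0.976) and PLEKHG4B (0.972). Their log2 fold changes in KMS11 ran from 0.15 for GPAT4 to 0.88 for LPCAT1, and GPAT4 and SPAG7 did not pass there.

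The counts of the members are little shared with copies. Expected counts were whole numbers in every library for 8 of the 9 genes and fractional in 1 library for FDPS. The 8 listed pseudogenes of FDPS together held at most 22 counts in a library and at most 0.153% of its FDPS count, and the 3 of IDI1 at most 2 counts. The paralog IDI2 had no more than 2 counts in any library and was not tested. On opposite strands, exons of MVK share 225 bases with MMAB, 2.5% of the exon bases of MVK, and exons of GGPS1 share 138 bases with ARID4B, 3.62% of those of GGPS1. The counts of ARID4B reach 618% of those of GGPS1. The library kit marks strand, but whether the counting used it is not given in the sources used here, so the values of MVK and GGPS1 are uncertain to that extent. MMAB, which acts in vitamin B12 metabolism and starts next to MVK, had a log2 fold change of 0.67 in KMS11 (adjusted p = 0.0437) and -0.33 in H929 (adjusted p = 0.105, edgeR).

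**Figure D5:**
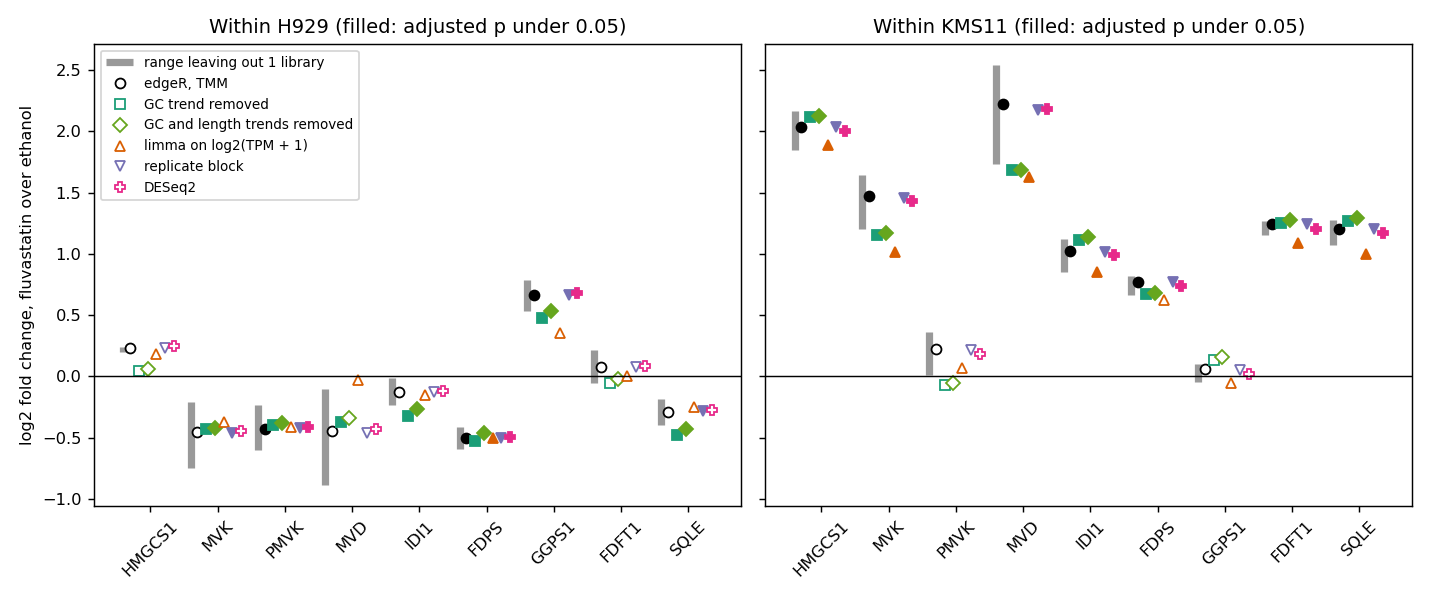
Log2 fold change of each gene within H929 (left) and within KMS11 (right) under 6 ways of processing, with filled symbols for an adjusted p under 0.05 and a grey bar for the range when a library is left out. The rises in KMS11 keep their direction under each setting shown, with MVD between 1.62 and 2.54 and MVK between 1.02 and 1.64. In H929 the symbols of MVK, MVD, IDI1 and SQLE are filled under some settings only. Those of PMVK and GGPS1 are open with limma, and only FDPS is filled under every setting shown.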

How the data were processed

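RNA from H929 and KMS11 cells was extracted with a Qiagen RNeasy kit, depleted of ribosomal RNA and made into stranded libraries by the authors. Per the submitters' processing notes and the study's methods, the authors used STAR 2.5.2b to place read pairs on GRCh38 and estimated the deposited expected counts, which are not normalized, with RSEM 1.3.0 on GENCODE 26. The deposited TPM values were scaled by RSEM for effective length, which the same files list, and library total.

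Names and positions came from GENCODE 44. The main test, on expected counts rounded to whole numbers, was that of edgeR 4.0.16 (R 4.3.3), and alternatives used DESeq2 1.42.0 and limma 3.58.1. Protein-coding genes were kept by filterByExpr over the 4 groups (minimum count 10, minimum total 15), scaled by TMM and tested by edgeR's quasi-likelihood F test, p being adjusted by Benjamini-Hochberg over the 13129 kept. Responses within lines, their difference and the ethanol comparison were contrasts among 4 group means fitted together, and the response over both lines was fitted with line and treatment. These comparisons share libraries. Standard errors were derived from the log2 fold change and F. The fits were tested on simulated data.

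All 9 members are named. Lists were given as counts with up to 4 examples of the largest change in KMS11 past the threshold, and in H929 called genes of each list, chosen after their values were seen. The values of some listed genes and markers are not reported here. Members and lists were chosen with earlier results of these data known. Likeness was computed for genes outside the lists whose log2 CPM averaged 3 or more. Alternatives were DESeq2, other scalings and filters, all annotated genes, no term for the line, a replicate block, each library left out, limma on log2(TPM + 1), an adjusted p under 0.01, and trends of GC content or of GC content and length removed per library with splines of 5 degrees of freedom. The share of counting error in the spread was not tested, and 2 replicates per group limit precision. FPKM values and protein sequences were not used here.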

Additional observations from a re-analysis of the deposited data

Results flagged for a closer look

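The response to fluvastatin differed between KMS11 and H929 past the threshold for 8 of the 9 genes. Of all tested genes, 23.2% passed (11.7% positive, 11.5% negative). The test was edgeR's quasi-likelihood test of the difference itself with Benjamini-Hochberg adjustment. The call of GGPS1 was lost with limma on TPM and in several fits that left out a library. The difference, KMS11 minus H929 on the log2 scale, was 2.67 for MVD, 1.93 for MVK, 1.80 for HMGCS1, 1.49 for SQLE, 1.28 for FDPS, 1.17 for FDFT1, 1.15 for IDI1 and -0.61 for GGPS1. For MVD, MVK, SQLE, IDI1 and FDPS the fitted log2 fold change was below 0 in H929 and above 0 in KMS11, and of these FDPS passed in both lines. For HMGCS1 and FDFT1 it was above 0 in both lines and larger in KMS11. No group holds more than 2 libraries, so no library was compared with the rest of its group.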

How the results depend on the processing

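Of 864 alternative values for the 9 genes, 787 kept direction and side of the threshold, 27 newly passed, 30 no longer passed and 20 changed sign. Members past the threshold over both lines numbered 0, and 2 with DESeq2 and 1 each with no filter, with a GC trend removed and with GC and length trends removed. Of all genes, 19.3%, 9.29%, 23.8% and 22.8% passed in those fits, in that order. Within H929 they numbered 3, and 5 with the replicate block, 1 with limma on log2(TPM + 1), 7 with a GC trend removed, 6 with GC and length trends removed and 2 to 5 when a library was left out. Within KMS11 they numbered 7, and 3 to 7 when a library was left out. With the replicate block MVK and SQLE also passed in H929 and PMVK passed for the difference, which then counted 9 of 9. No other call changed with it. Of all genes, 48.9% passed in H929 with the replicate block, 32.0% with limma and 56.8% with either form of trend removed. For the difference 32.2% of all genes passed with the replicate block. Same-numbered libraries deviated together in H929 (r = 0.774 over 5561 genes) and not in KMS11 (r = -0.0782), so the numbers were not taken to pair the samples of the whole series. By CPM, MVK and MVD in H929 were lower with fluvastatin at each replicate number.

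Of the values that changed sign, MVK in ethanol lost its call and MVD in ethanol passed in the new direction, and the others had no call in either direction. FDFT1 within H929 was -0.00094 with limma, -0.055 with a GC trend removed, -0.021 with GC and length trends removed and -0.050 to 0.21 when a library was left out. Within KMS11 PMVK was -0.071 with a GC trend and -0.058 with GC and length trends removed, and GGPS1 was -0.058 with limma and -0.050 to 0.10 when a library was left out. Over both lines PMVK ran from -0.27 to 0.037 and FDPS from -0.080 to 0.32 when a library was left out. In ethanol MVK and MVD were 0.23 and 0.73 with limma, 0.019 and 0.83 with a GC trend removed and 0.030 and 0.82 with GC and length trends removed. The cause was not tested. MVD had the lowest count of the 9, 135 in a library, and what depth limits was not tested.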
